A study of Mus musculus with 23 samples.

Results

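Cacna1c encodes the pore-forming subunit of Cav1.2, an L-type calcium channel. In neurons this channel opens on depolarisation, and the calcium that enters is known to act on transcription in the nucleus as well as on excitability. In humans, CACNA1C is a known risk locus for bipolar disorder and schizophrenia. The chromatin of the gene was described here in 4 subregions of the mouse cortex, over a fixed interval of 630 kb on chromosome 6 that begins at position 118530001 (mm9). All regions that overlapped the interval were taken from the 16 deposited lists of histone mark enrichment. These were 389 list entries of 527177 in all, or 219 of 334051 when only the 8 full lists were counted. The interval was chosen by measured values, namely the many H3K27ac regions of the lateral entorhinal enhancer list that the other enhancer lists lacked, so all H3K27ac numbers are given as a description and support nothing.

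The histone marks H3K27ac and H3K4me2 were mapped by chromatin immunoprecipitation and sequencing in lateral entorhinal cortex (LEC), anterior cingulate cortex (ACC), retrosplenial cortex (RSC) and medial entorhinal cortex (MEC). The mice were C57BL6J at postnatal day 56, with no treatment or mutation given, and each subregion was dissected from both hemispheres as whole tissue, so a mark carried by fewer cells and a weaker mark per cell cannot be told apart. Acetylation at H3K27 marks regulatory elements in use, while dimethylation at H3K4 also marks elements that are only primed. The labels give 2 libraries for each subregion and mark, with 1 for MEC H3K4me2, but each subregion and mark has only 1 full list and 1 enhancer list. Every enhancer region is also in its full list, and the regions left out of an enhancer list are called excluded regions here. The lists hold no enrichment value and no value per library, so no spread between animals can be given, no test across animals was possible and the depth is unknown. The H3K27ac enhancer lists hold 22973 regions for LEC, 27909 for ACC, 24272 for RSC and 10951 for MEC, whose list is the shortest.

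To place the gene in the interval, its transcription starts were taken from the RefSeq promoter table, which is on another build (GRCm38.p6). No position was moved between builds, and only distances within a build were compared. In that table Cacna1c lies on the minus strand, so its 5′ end points to higher positions, and it has 3 starts. The start of Dcp1b, which encodes a subunit of the mRNA decapping complex, lies between the far and the middle start, on the plus strand. The 4 promoter windows, each from 250 bases before to 50 after the start, are shown because their CpG content separates them, with every CpG in capitals.
Cacna1c far start (chr6:119196360-119196659, GRCm38.p6, minus strand): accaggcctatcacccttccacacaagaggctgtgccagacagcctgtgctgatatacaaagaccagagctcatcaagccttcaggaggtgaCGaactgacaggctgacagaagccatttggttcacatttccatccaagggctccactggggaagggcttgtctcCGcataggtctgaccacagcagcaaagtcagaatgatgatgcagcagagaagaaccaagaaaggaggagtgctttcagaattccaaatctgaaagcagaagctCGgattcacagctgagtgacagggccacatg
Cacna1c middle start (chr6:119108446-119108745, GRCm38.p6, minus strand): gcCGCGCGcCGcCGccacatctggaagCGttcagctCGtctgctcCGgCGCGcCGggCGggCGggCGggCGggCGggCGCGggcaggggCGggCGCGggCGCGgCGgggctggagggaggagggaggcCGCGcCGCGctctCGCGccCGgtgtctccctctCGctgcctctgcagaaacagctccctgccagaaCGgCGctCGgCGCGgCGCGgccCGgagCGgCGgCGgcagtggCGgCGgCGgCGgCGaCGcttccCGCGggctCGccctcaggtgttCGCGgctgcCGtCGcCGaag
Cacna1c inner start (chr6:118757925-118758224, GRCm38.p6, minus strand): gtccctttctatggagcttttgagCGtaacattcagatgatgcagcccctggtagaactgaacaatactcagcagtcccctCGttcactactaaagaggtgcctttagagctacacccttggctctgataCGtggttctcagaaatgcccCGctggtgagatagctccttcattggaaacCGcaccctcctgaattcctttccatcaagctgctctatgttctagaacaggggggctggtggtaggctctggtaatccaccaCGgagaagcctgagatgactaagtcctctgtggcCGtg
Dcp1b start (chr6:119175003-119175302, GRCm38.p6, plus strand): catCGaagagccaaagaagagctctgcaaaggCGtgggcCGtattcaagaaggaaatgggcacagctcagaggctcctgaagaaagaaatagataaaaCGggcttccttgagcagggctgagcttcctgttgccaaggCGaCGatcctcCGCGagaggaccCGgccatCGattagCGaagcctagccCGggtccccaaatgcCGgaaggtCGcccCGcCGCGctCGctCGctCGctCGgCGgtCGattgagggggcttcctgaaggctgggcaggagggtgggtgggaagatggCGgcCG

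The middle start had 57 CpGs in 300 bases and a GC content of 81.3%, where the median over all 32851 promoters in the table was 7 CpGs. Only 50 of those promoters, or 0.152%, had at least as many. The far start had 3 CpGs, the inner start 7 and the Dcp1b start 25. Of the motifs searched on both strands, the GC box GGGCGG occurred 6 times at the middle start, overlapping matches counted, and not at the other starts. It is held by 35.7% of all promoters. TGACG, a cyclic AMP response half-site held by 20.8% of promoters, occurred once at the far start, and neither TATAAA nor TGACGTCA occurred in the 4 windows.

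One excluded region was common to all 8 full lists of the interval, at chr6:119124251-119128275 (mm9), with 119125426 to 119126525 in every list. It lies toward the end of the interval where the 5′ end of Cacna1c is expected, and spacing was used to ask which start it could be. A start counted as met when a region lay at its distance from any point of those shared bases. With the Dcp1b start set on it, 3 of 5 other starts met excluded regions. These were Ankrd26, the nearest gene beyond the 3′ end, 612.98 kb away in 6 lists, Bms1, further out, 755.8 kb away in 5 lists, and the inner Cacna1c start in 4 lists.

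Setting the middle Cacna1c start there also gave 3 of 5, so the number of starts did not separate these placements. Under that placement Dcp1b met excluded regions of 5 lists, the inner start and Ankrd26 met 1 each, both in ACC H3K27ac, and Bms1 met none. With the far Cacna1c start set there, 1 of 5 starts met an excluded region, and Ankrd26, Bms1 and Dcp1b met no region of any list. The Dcp1b placement matched more lists at both outer genes and is used below, but which promoter the shared region holds was not settled by these files. The neighbouring genes Zfp9, Zfp248 and Cacna2d4 were not tried, and how often arbitrary distances meet a region was not computed. Under the Dcp1b placement an excluded region sat at 1 of the 3 Cacna1c starts, the inner one, 417.3 kb below Dcp1b, in LEC and ACC and in both marks.

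Under the same placement the CpG-dense middle start lies 66.8 kb below Dcp1b, and there all 8 enhancer lists had a region. For H3K27ac these regions joined to one element, chr6:119049901-119060400 (mm9), 8325 bp wide in LEC, 10500 bp in ACC, 6525 bp in RSC and 4500 bp in MEC. At 21.2 kb above Dcp1b, where the far start would lie, no list had a region. The nearest excluded sites on either side were chr6:119140476-119142925 (LEC H3K27ac, ACC and RSC H3K4me2) and chr6:119148376-119151000 (LEC H3K27ac, LEC and ACC H3K4me2). The interval is called the Cacna1c locus on the strength of the gene order and these spacings, and the counts that follow do not depend on which start is which.

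**Figure D1:**
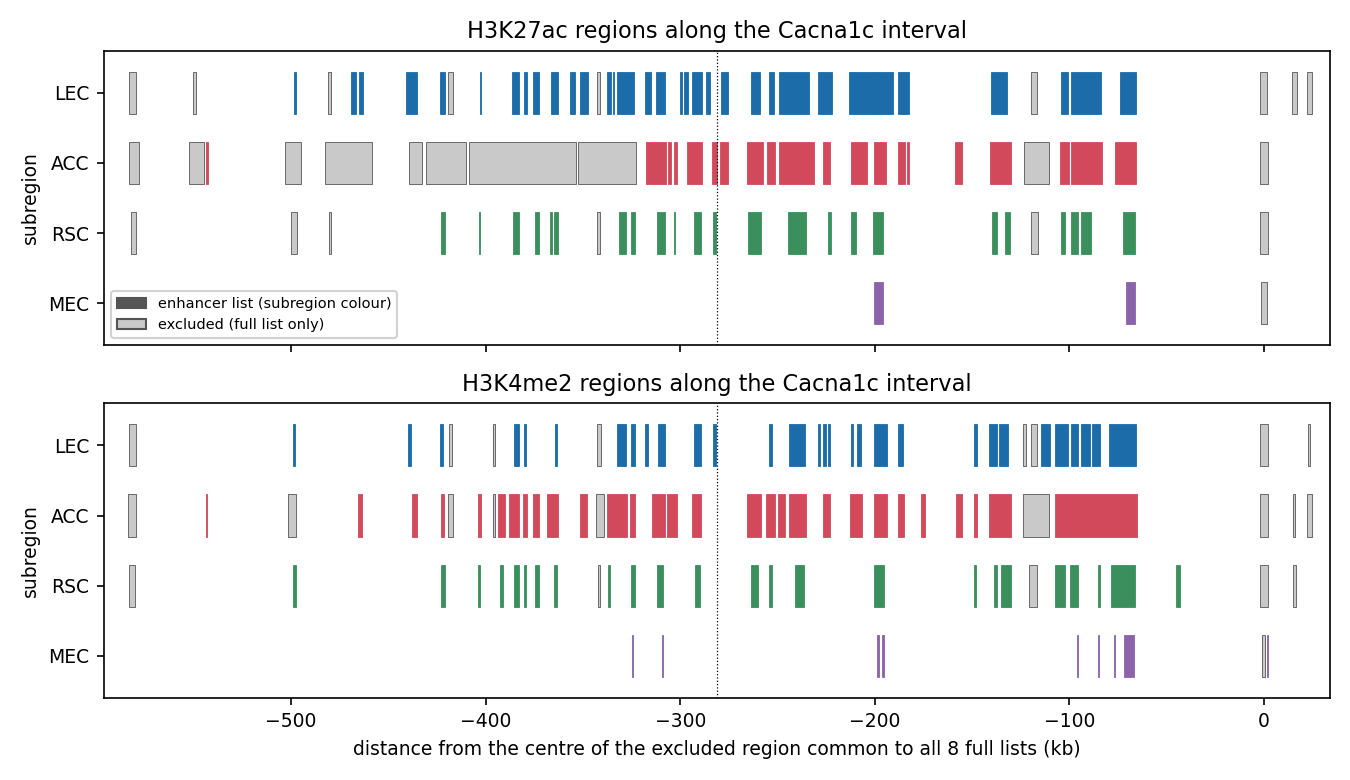
Every H3K27ac (top) and H3K4me2 (bottom) region in the Cacna1c interval of mm9, plotted by distance in kb from the centre of the excluded region that all 8 full lists share; subregion-coloured blocks are in the enhancer list, grey blocks are excluded, and the dotted line is the middle of the interval. The wide grey ACC H3K27ac blocks, up to 54875 bp, lie over the narrower LEC and RSC blocks on the lower side, and MEC has 2 H3K27ac enhancer blocks.

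H3K27ac enhancer regions numbered 33 in LEC, 20 in ACC, 23 in RSC and 2 in MEC. They covered 159.8 kb in LEC, 127.45 kb in ACC, 73.9 kb in RSC and 8.725 kb in MEC. Relative to the length of each list, the regions at the locus made up 1.44 per 1000 listed for LEC, 0.717 for ACC, 0.948 for RSC and 0.183 for MEC. The order changed when excluded regions were counted. In the full lists LEC had 42 regions covering 181.8 kb, ACC 30 covering 300.9 kb, RSC 29 covering 88.9 kb and MEC 3 covering 12.075 kb. ACC thus had fewer regions than LEC but covered 47.8% of the interval, against 28.9% in LEC.

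H3K4me2 values had no part in the choice of the interval. They are not independent of it, since 27 of 30 LEC H3K4me2 enhancer regions here overlapped LEC H3K27ac. H3K4me2 covered the most bases in ACC in both kinds of list, while the number of regions was close in LEC and ACC. Enhancer regions numbered 30 in LEC, 29 in ACC, 24 in RSC and 9 in MEC, and covered 97.8 kb, 163.8 kb, 68.9 kb and 10.275 kb in that order. Full lists had 38 regions in LEC, 38 in ACC, 29 in RSC and 10 in MEC, covering 115.9 kb, 200.5 kb, 83.0 kb and 11.375 kb. Of the 9 MEC enhancer regions, 2 were at least 1000 bp wide.

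**Figure D2:**
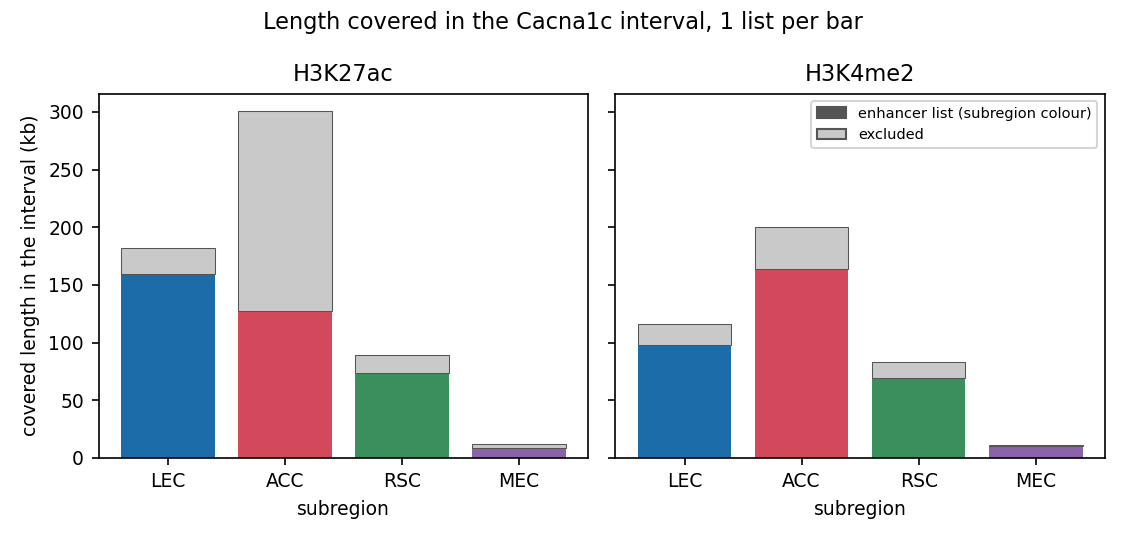
Length in kb of the Cacna1c interval covered by regions of each mark, 1 list per bar and so with no error bars; the coloured part is the enhancer list and the grey part the excluded regions. Excluded regions add 173 kb to ACC H3K27ac and 22.0 kb to LEC H3K27ac.

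The locus was among the densest of the genome in several lists. For LEC H3K27ac this restates the choice of the interval. The H3K4me2 ranks are not independent of that choice, since the marks often overlap, so all ranks are given as a description. The tiles also begin at fixed positions, while the interval was placed by its values. When each chromosome was cut into tiles of 630 kb, 7 of 4184 tiles (0.167%) held at least 33 LEC H3K27ac enhancer regions, and the median tile held 3. For ACC H3K27ac, 263 tiles (6.29%) held at least 20 enhancer regions, but only 4 tiles (0.0956%) had as many bases in the full list. ACC H3K4me2 enhancer regions covered as much in 2 tiles (0.0478%), and LEC H3K4me2 enhancer regions in 10 (0.239%). RSC reached its H3K27ac enhancer number in 98 tiles (2.34%). MEC reached its 2 H3K27ac enhancer regions in 1921 tiles (45.9%) and its 9 H3K4me2 enhancer regions in 376 tiles (8.99%).

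The middle of the interval divides the locus into a lower side, toward the 3′ end of the gene, and an upper side, and the subregions differed in how they filled them. On the lower side, H3K27ac enhancer regions covered 62.75 kb in LEC, 24.8 kb in ACC, 25.6 kb in RSC and 0 kb in MEC. On the upper side they covered 97.05 kb in LEC, 102.7 kb in ACC, 48.3 kb in RSC and 8.725 kb in MEC. Of the 33 LEC regions, 21 were on the lower side, as were 6 of 20 in ACC, 12 of 23 in RSC and 0 of 2 in MEC. The full lists turned the order on the lower side round, with 73.6 kb in LEC and 181.7 kb in ACC, while RSC had 33.6 kb and MEC 0 kb. H3K4me2 enhancer regions on this side covered 24.975 kb in LEC, 61.4 kb in ACC, 22.5 kb in RSC and 1 kb in MEC.

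**Figure D3:**
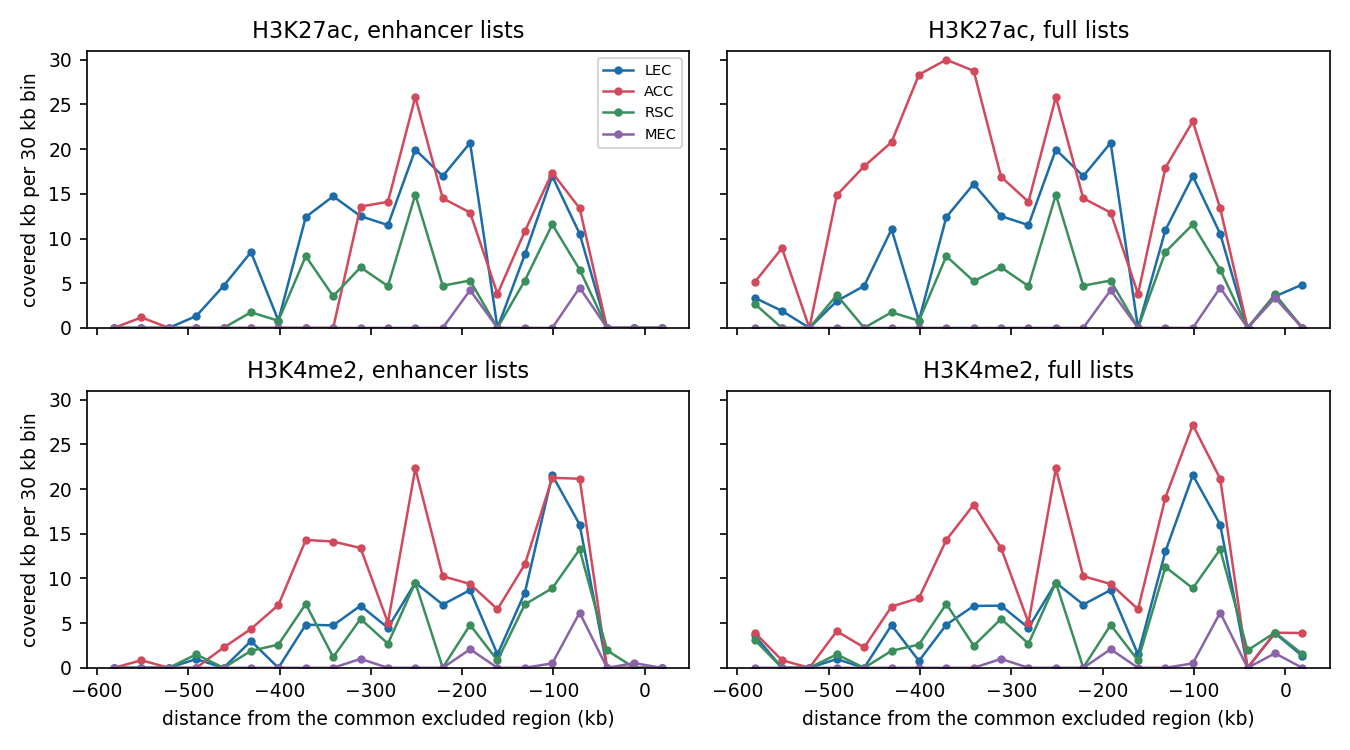
Covered length in kb in each of 21 bins of 30 kb along the interval, by distance in kb from the excluded region common to all 8 full lists, for the 4 subregions, marks by row and enhancer or full lists by column. In a run of neighbouring bins ACC H3K27ac is at 0 kb in the enhancer lists and between 14.85 and 30 kb in the full lists, where 1 bin is filled whole.

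The 4 widest ACC H3K27ac regions lay on the lower side, and all were excluded from the ACC enhancer list. They were chr6:118643651-118668075 (24425 bp), chr6:118695751-118715900 (20150 bp), chr6:118717576-118772450 (54875 bp) and chr6:118773701-118803325 (29625 bp). No H3K27ac region of the interval reached 20 kb in LEC, RSC or MEC, among 42, 29 and 3 regions. Such regions are rare in the whole lists, with 332 of 42136 in LEC, 376 of 41584 in RSC and 58 of 22848 in MEC. Their absence here is therefore not read as a difference. In the whole ACC list 34 of 48266 H3K27ac regions (0.0704%) were at least as wide as the widest of the 4, itself included, and 628 reached 20 kb. Each of the 4 held a narrower site that was excluded in a list of another subregion. In the first and the last, LEC and RSC H3K27ac had such a site, in the second LEC H3K27ac and H3K4me2, and in the widest LEC H3K4me2. Within the widest, LEC had 6 H3K27ac enhancer regions covering 15.4 kb and RSC had 5 covering 8.825 kb, where ACC had the single excluded region. ACC H3K4me2 did not run on in this way: it had 6 enhancer regions there, covering 21.3 kb, against 3 in LEC (4.825 kb), 6 in RSC (9.75 kb) and 0 in MEC.

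**Figure D4:**
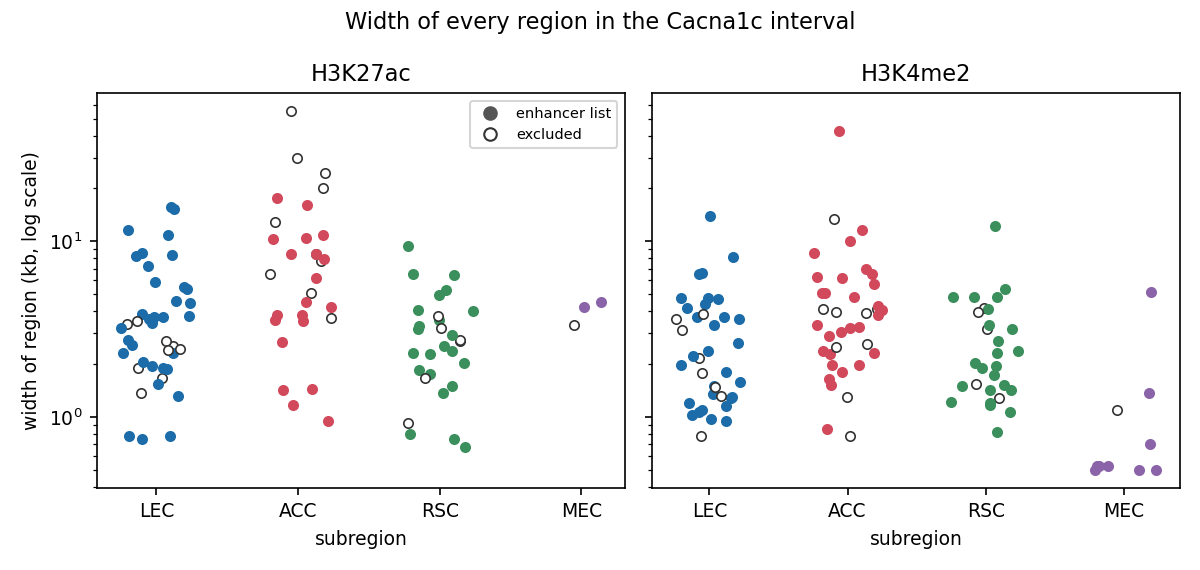
Width in kb (log scale) of each region in the interval, 1 point per region, with H3K27ac on the left and H3K4me2 on the right; filled points are in the enhancer list and open points are excluded. The 4 open ACC H3K27ac points are the only H3K27ac points above 20 kb, a width that is rare in every whole H3K27ac list. The filled ACC H3K4me2 point at 42400 bp lies where the Dcp1b placement, which was not settled, puts the CpG-dense start.

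LEC-only H3K27ac enhancer regions, those overlapping no H3K27ac enhancer region of another subregion, numbered 11 of 33 at the locus, where 20.2% of the whole LEC list had this status. Nothing is read from that count, since it chose the locus. All 11 lay on the lower side, between positions 118627601 and 118841375, and they covered 24.9 kb. When the full H3K27ac lists of the other subregions were counted, 2 of the 33 remained LEC-only, against 16.5% of the whole list, and the same number with the full lists of both marks, against 9.59%. The other 9 overlapped excluded ACC regions, 8 of them lying wholly inside one, and 20.6 of the 24.9 kb lay within excluded ACC regions. Over the genome, 17.2% of LEC-only regions overlapped an excluded ACC region. The 11 regions span 213.8 kb, of which ACC H3K27ac covered 160.6 kb in the full list and 21.2 kb in the enhancer list. Regions placed anywhere in that span would often fall in excluded ACC regions. RSC excluded regions overlapped 1 of the 11, over a genome-wide 8.89%, and MEC excluded regions 0 of 11, over 1.61%.

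The widest LEC-only regions were chr6:118685251-118691150 (5900 bp, 72.9% inside an excluded ACC region), chr6:118774851-118778625 (3775 bp) and chr6:118657001-118659750 (2750 bp), the last 2 wholly inside one. The 2 that no full list shared were chr6:118826176-118826925 (750 bp) and chr6:118839476-118841375 (1900 bp), and neither carried H3K4me2 of any subregion. H3K4me2 on the 11 LEC-only regions came more often from ACC than from LEC. ACC full-list H3K4me2 regions overlapped 7 of them, against 41.2% of LEC-only regions genome-wide. LEC H3K4me2 overlapped 3, against 47.5%, RSC 3, against 26.2%, and MEC 0, against 9.56%.

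**Figure D5:**
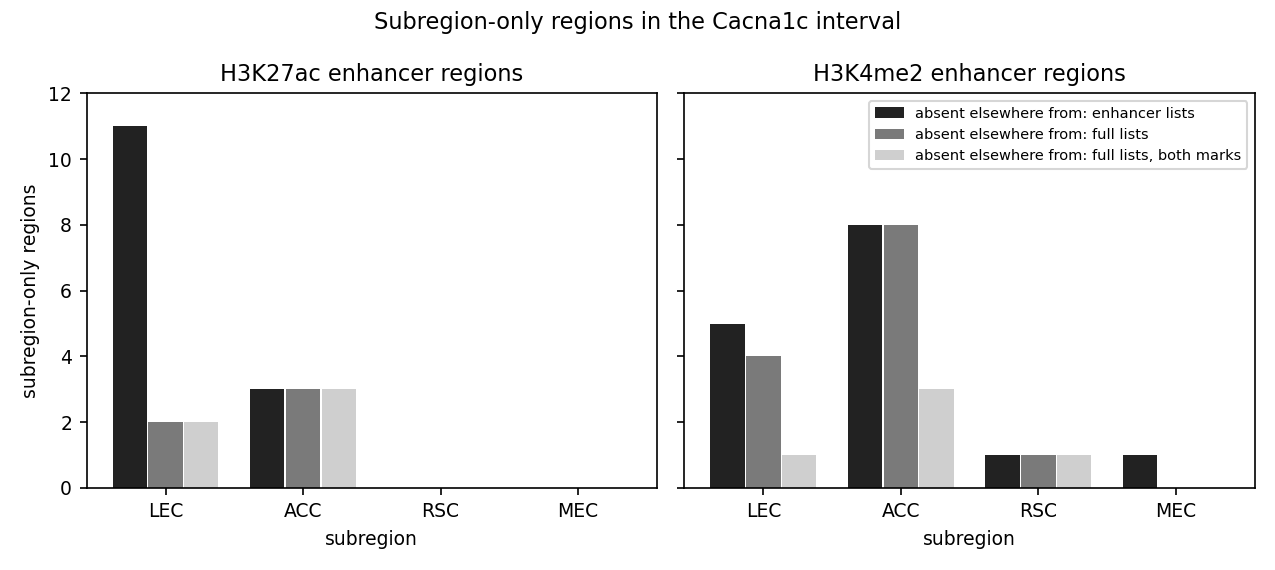
Number of enhancer regions in the interval that belong to a single subregion, for H3K27ac (left) and H3K4me2 (right), when other subregions are counted by their enhancer lists (black), full lists of the mark (dark grey) or full lists of both marks (light grey). LEC H3K27ac stands at 11, 2 and 2, and ACC H3K27ac at 3 in each.

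ACC had 3 H3K27ac enhancer regions of its own among 20, where the background of its list was 22.9%, and the same 3 were absent from every other full list of both marks, where the background was 11.8%. They were chr6:118582626-118583800 (1175 bp), chr6:118820026-118821475 (1450 bp) and chr6:118967376-118971175 (3800 bp). Each also carried ACC H3K4me2, as did 17 of the 20 ACC H3K27ac enhancer regions at the locus. The share of ACC-only regions with ACC H3K4me2 over the genome was not computed. The 2 LEC regions of this kind carried no LEC H3K4me2, and these numbers are too small to compare. RSC had 0 of 23 and MEC 0 of 2 such H3K27ac regions, where the whole lists had 20.4% and 20%. Against full lists of the mark those lists had 16.4% and 10.1%, and 21% in ACC. Against full lists of both marks RSC had 12% and MEC 8.16%. For H3K4me2, 5 of 30 enhancer regions were LEC-only (list background 16.2%), 8 of 29 ACC-only (20.8%), 1 of 24 RSC-only (16.1%) and 1 of 9 MEC-only (32.6%). Counting full lists of the mark elsewhere left 4 in LEC (14.3%), 8 in ACC (20%), 1 in RSC (13.6%) and 0 in MEC (20.2%). Counting full lists of both marks left 1 in LEC (10.3%), 3 in ACC (12.4%), 1 in RSC (7.67%) and 0 in MEC (17.4%). With every list cut to its widest regions, as many as the shortest list holds, H3K4me2 gave 1 LEC-only, 10 ACC-only, 2 RSC-only and 1 MEC-only region. Whole-list shares were not computed for the cut lists, so nothing is read from these numbers. No share was adjusted for region width, and H3K27ac enhancer regions at the locus were wider than those of their lists (below).

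More than 50% of the enhancer regions of LEC, ACC and RSC carried both marks. LEC H3K4me2 overlapped 20 of the 33 LEC H3K27ac enhancer regions, or 60.6% (95% Wilson interval 43.7 to 75.3, counting error only), level with 60.5% of the whole list. It was 17 of 20 in ACC, 85.0% (64.0 to 94.8), with 61% over the list, and 16 of 23 in RSC, 69.6% (49.1 to 84.4), with 53.7% over the list. Both MEC regions carried MEC H3K4me2, where the list had 34.3%. In the other direction, 27 of 30 LEC H3K4me2 enhancer regions carried LEC H3K27ac, 90.0% (74.4 to 96.5), where the whole list had 50.4%. In ACC it was 15 of 29 (list 53.1%), and 34 of 38 when full lists were used (list 65.8%). In RSC it was 16 of 24 (list 48.4%), and in MEC 3 of 9 (list 26.2%). The LEC share of 90.0% is in part built in, since the locus was chosen for its LEC H3K27ac regions. It is given as a description. Median widths of H3K27ac enhancer regions at the locus were 3700 bp in LEC, 4375 in ACC, 2525 in RSC and 4362.5 in MEC. The whole lists had 2200, 2075, 2075 and 2100 bp in that order. By median, H3K4me2 enhancer regions were wider than their lists in LEC, ACC and RSC, and narrower in MEC. Wider regions overlap others more readily under the 1 bp rule, so an excess over a list share is not read as a trait of the locus.

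LEC and ACC shared a larger part of their covered bases on the upper side than on the lower side. For H3K27ac this is in part built in by the choice of the locus, since all 11 LEC-only regions lie on the lower side, and it is given as a description. By H3K27ac enhancer lists they shared 73.03% of their covered bases on the upper side and 18.2% on the lower side, with 41.2% over the genome. With full lists the values were 66.1% on the upper side and 36.02% on the lower side, with 54.1% over the genome. LEC and RSC shared 44.4% on the upper side and 33.4% on the lower side by H3K27ac enhancer lists, with 35.03% over the genome. By H3K4me2 enhancer lists LEC and ACC shared 61.6% on the upper side and 29.9% on the lower side, with 44.7% over the genome. MEC shared 5.46% of H3K27ac enhancer bases with LEC at the locus, 6.85% with ACC and 11.8% with RSC, below its genome-wide values of 19.3%, 18.0% and 23.5%. These are percentages of the bases in either list. All 8.725 kb of MEC lay within regions of each other subregion, so the shares are as high as the short MEC cover allows. With full lists the share of ACC and MEC at the locus was 4.01%, with 25.7% over the genome, and all 12.075 kb of MEC lay within ACC regions.

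A pair of sites at the locus was in all 8 enhancer lists. One is the element where the Dcp1b placement, which was not settled, puts the CpG-dense start. There ACC H3K4me2 formed a single region of 42400 bp, chr6:119018751-119061150, and 15 of 54419 ACC H3K4me2 regions (0.0276%), itself included, were at least as wide. Within it LEC had 5 H3K4me2 enhancer regions, RSC 4 and MEC 4. The other site is the H3K27ac element chr6:118924726-118935550, 10825 bp wide in LEC, 6150 bp in ACC, 5300 bp in RSC and 4225 bp in MEC, with H3K4me2 of all 4 subregions over chr6:118925851-118932450. These 2 sites held both H3K27ac enhancer regions of MEC. The widest H3K27ac enhancer regions of LEC, ACC and RSC lay lower, between the middle of the interval and that element, at chr6:118876951-118892600 in LEC (15650 bp), chr6:118877101-118894775 in ACC (17675 bp) and chr6:118881526-118890950 in RSC (9425 bp), all overlapping. The locus had 36 merged H3K27ac enhancer elements, and the share of each class over the genome is given in brackets. Of these 36, 11 were from LEC alone (11.03%), 9 from LEC, ACC and RSC (14.01%) and 6 from LEC and RSC (3.51%). A further 3 were from LEC and ACC (10.15%) and 3 from ACC alone (15.18%). The remaining elements were 2 from ACC and RSC (9.98%) and 2 from all 4 subregions (9.72%). LEC-only regions chose the locus, so nothing is read from these shares.

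The interval had no region across either end. The nearest region inside the 3′ end was an ACC H3K4me2 region at chr6:118542576-118546525, and the nearest outside ended at 118525175. At the 5′ end the last region inside ended at 119151000, and the first outside began at 119162351.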

How the data were processed

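Regions are on mm9, and Bowtie 1.1.1 with bedtools 2.19.0 are named in the submitters' processing notes. All lists used are named reproducible. How peaks were called, at what threshold, how libraries were joined and what defined an enhancer list is not stated in these sources. Only 1 MEC H3K4me2 library is described, so what the name means for the MEC H3K4me2 lists is unknown. The deposited score column held the width of each region in bp, and the MEC H3K27ac lists had none. Of 17 deposited lists, 1 repeated another and was left out. The labels describe 23 samples. Intervals were handled with Python 3.11.15 and numpy 2.4.6, checked on simulated lists against a count base by base. Regions overlapped when they shared at least 1 bp. A region belonged to 1 subregion when it overlapped no enhancer region of the mark elsewhere, and excluded regions were full-list rows absent from the enhancer list. Coordinates are 1-based. Promoters are RefSeq's, in GRCm38.p6. Spacings between starts were compared with spacings between regions, which assumes that both builds keep these distances. The locus, lists and tests were chosen with earlier results of these data known. Named regions were those excluded in all lists, those of all 4 subregions, the 3 widest of 1 subregion only, those absent elsewhere with both marks, and the widest of each list. Other regions named, such as the wide ACC ones, were chosen after their values were seen.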

Additional observations from a re-analysis of the deposited data

How the results depend on the processing

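Of 172 values computed under other settings, 155 stayed within 1.5 times of the reported value or inside its interval. The number of LEC-only H3K27ac regions, 11, fell to 2 with full lists of the mark elsewhere and to 2 with full lists of both marks, because excluded regions then count as shared. It was 6 when each list was cut to the widest regions, as many as the shortest list holds. With 50% of a region needed for overlap, RSC had 1 H3K27ac region of its own in place of 0, and LEC H3K4me2 overlapped 42.4% of LEC H3K27ac enhancer regions. Shares over the whole lists were not computed for the cut lists or for the 50% rule. MEC H3K4me2 enhancer regions of at least 1000 bp numbered 2 and covered 6.5 kb. Moving the ends of the interval by 50 kb moved none of 64 values past 1.5 times. No library could be left out. No paired analysis was possible because the lists hold no values per library. Depth is unknown, so the short MEC lists and the absence of MEC regions cannot be told apart from shallower libraries.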

Other observations

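Regions of the 8 full lists joined to 33 stretches covering 347.2 kb, or 55.1% of the interval. The longest stretch free of regions in every list was 41.4 kb (chr6:119082876-119124250), below the excluded region that all 8 full lists share. At its lower edge lay the single RSC-only H3K4me2 region, chr6:119080926-119082875 (1950 bp), which overlapped no region of either mark in LEC, ACC or MEC. A second free stretch of 39.2 kb (chr6:118583801-118622950) lay near the 3′ end, beside the ACC region with both marks at chr6:118582626-118583800.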
